A study of Mus musculus with 12 samples.

Results

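The livers of YAPKO TAZHET mice were compared with those of their WT littermates, gene by gene, in 6 of the 12 libraries of the series. Members of the comparison are the genes with at least 1 TPM, a measure of transcript abundance scaled for gene length and library total, in at least 3 of these 6 libraries, which holds for 11741 of the 41743 genes listed. All 6 mice were females aged 3 to 4 months on a mixed C57BL/6-FVB background, and RNA was taken from whole frozen liver. The 3 YAPKO TAZHET mice (LM225, LM250 and LM251) lacked both copies of *Yap1* and 1 copy of *Wwtr1*, the gene of TAZ, and the 3 WT mice (LM226, LM227 and LM230) were littermate controls. Deletion was by *Foxa3*-Cre, which acts in the early foregut endoderm, so hepatocytes and bile duct cells were targeted. Deletion in blood, endothelial, stellate and immune cells of the same liver was not measured here. The paper mentions evidence, not shown, that this Cre may also act in the developing kidney, which comes from mesoderm. Floxed *Yap1* and *Wwtr1* alleles came from FVB mice and the Cre from C57BL/6 mice. In the final cross every pup inherits at least 1 floxed copy of each gene, and the labels do not say which littermates served as WT. Males of this genotype were not among the 6 mice.

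YAP and TAZ are related coactivators that the Hippo kinases keep in the cytoplasm by phosphorylation. In the nucleus they bind TEAD transcription factors and raise genes of growth, adhesion and matrix. In liver they are best known for bile duct formation, for the fate choice between hepatocytes and duct cells, and for regeneration. A liver without bile ducts cannot drain bile, and the usual hepatocyte response to retained bile acids is lower synthesis and uptake and higher export of bile acids into blood.

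Values per mouse are given below as scaled TPM, which is the deposited TPM divided by a factor for the library, in the order LM226, LM227 and LM230 for WT and LM225, LM250 and LM251 for YAPKO TAZHET. The factors ran from 0.858 to 0.947 in WT and from 1.075 to 1.182 in YAPKO TAZHET livers. Log2 fold changes are YAPKO TAZHET minus WT on log2(scaled TPM + 1); for genes at low levels this scale shrinks the change. In the limma fit with Benjamini-Hochberg adjustment, 4486 genes (38.2% of those tested) had an adjusted p under 0.05, with 2253 (19.2%) higher and 2233 (19%) lower. A change over 2-fold was reached by 881 of the higher genes (7.5%) and by 484 of the lower ones (4.12%), and over 16-fold by 18 and 32. In 52.1% of tested genes every mouse of 1 group was above every mouse of the other. Without scaling, the median of all tested genes moved from -0.04 to 0.24 on the log2 scale and the higher share of the calls from 50.2% to 82.2%, so all changes are relative to the bulk of the genes. The filter admits genes through 1 group alone: 420 genes passed it only through the YAPKO TAZHET libraries and 360 of these were called higher, and 55 passed only through the WT libraries and all 55 were called lower. Where a list holds 2 or more such genes, their number is given. Leaving out each mouse in turn, 2863 of the 4486 genes (63.8%) were called in every fit that tested them. Without YAPKO TAZHET mouse LM251, 2833 genes were called. P-values measure only the spread between these 6 mice.

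**Figure D1:**
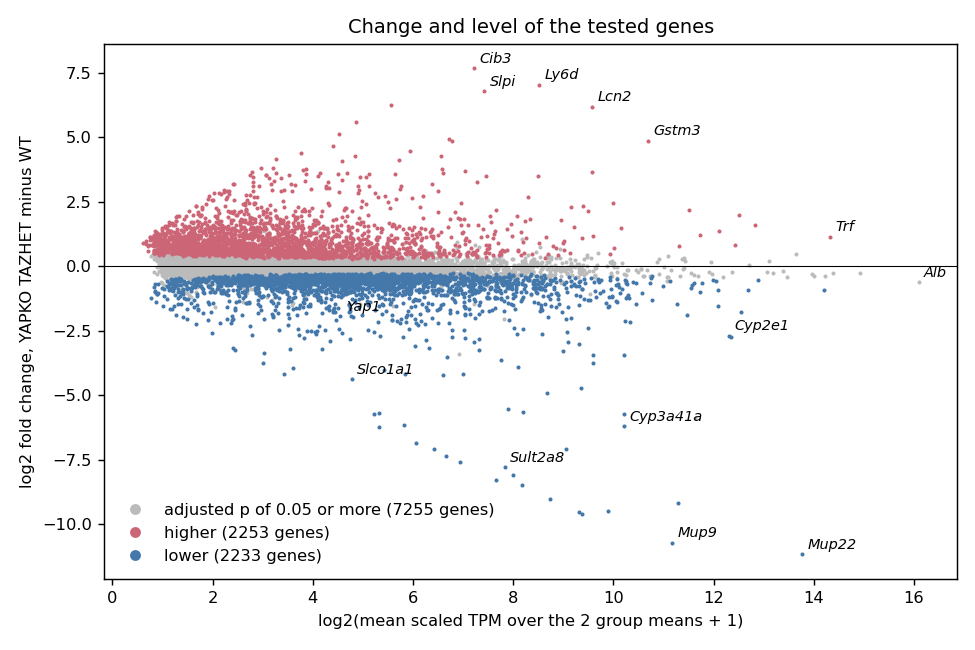
Each point is 1 of the 11741 tested genes, with log2 of the mean level plus 1 on the horizontal axis and the log2 fold change (YAPKO TAZHET minus WT) on the vertical axis. Red marks the 2253 higher and blue the 2233 lower genes, and *Mup22* at -11.17 and *Cib3* at 7.67 are the extremes.

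With the tested genes in 5 equal bins by mean level, 752 of the 2349 genes in the lowest bin were higher and 177 lower, and 277 of the 2348 in the highest bin were higher and 832 lower. The filter bears on the lowest bin: of its 1896 genes that passed in both groups, 406 were higher and 130 lower, and in the next bin 508 of 2334 were higher and 230 lower. Among the 100 most abundant genes of WT livers, 7 were higher and 48 lower, and 77 of them were also among the 100 most abundant genes of YAPKO TAZHET livers. As a share of the deposited TPM, the genes called higher took 6.00% ± 0.25 in WT and 17.8% ± 0.096 in YAPKO TAZHET livers, and the genes called lower took 38.9% ± 0.87 and 21.9% ± 1.2 (SD, n = 3 mice per group); since the calls chose these genes, the shares are a description. The 5 most abundant genes of WT livers were *Alb*, *mt-Co1*, *Mup22*, *Apoa2* and *Apoe*, and in YAPKO TAZHET livers *Trf* and *mt-Co2* stood in place of *Mup22* and *Apoa2*.

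*Yap1* (chromosome 9, 7931999 to 8004596 on the GRCm38 build that the files use, minus strand) was at 35.04, 36.7 and 36.1 scaled TPM in WT livers and at 7.301, 8.36 and 10.7 in YAPKO TAZHET livers. Every YAPKO TAZHET mouse was far below every WT mouse, at 0.244 times the WT mean (log2 fold change -1.93 with a standard error, SE, of 0.14, limma adjusted p = 3.61e-05). *Wwtr1* (chromosome 3, 57455649 to 57575910), of which 1 copy was deleted in the targeted cells, was at 8.84, 9.36 and 9.01 in WT and at 11.9, 10.7 and 10.7 in YAPKO TAZHET livers. The groups did not overlap and the YAPKO TAZHET mice were the higher ones, but the difference missed the threshold (log2 fold change 0.26, SE 0.10, limma adjusted p = 0.0743). Without scaling it passed (log2 fold change 0.56, limma adjusted p = 0.00779). The values come from whole genes and whole liver, so they do not show which exons were read or which cells the transcripts came from. In a bulk sample, fewer cells of a type and less RNA per cell cannot be told apart, here and in all results below.

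Around the deleted loci and the *Foxa3* locus the called share varied with the width of the window. Within 2, 5 and 10 Mb on each side of *Yap1* it was 50%, 56.3% and 35.3% of 8, 16 and 34 tested genes, and around *Wwtr1* 53.8%, 40.6% and 39.2% of 13, 32 and 51. Around *Foxa3*, the gene whose promoter drives the Cre, it was 46.3%, 44.8% and 39.7% of 41, 67 and 179. These shares stand beside 38.2% of all genes and were not tested. By chromosome the called share ran from 34.7% on chromosome 8 to 42.2% on chromosome 19, and none of the 13 mitochondrial genes was called.

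Of 21 tested components of the Hippo pathway, 3 were higher and 4 lower, with a median log2 fold change of -0.10. The called share was 33.3%, below the 38.2% of all genes. Without scaling 6 were higher and 3 lower and the median was 0.19. The kinases *Stk3*, *Stk4*, *Lats1* and *Lats2* and their scaffold genes *Sav1*, *Mob1a* and *Mob1b* had log2 fold changes between -0.33 and 0.03, and none passed the threshold. The called changes besides *Yap1* and the TEAD genes lay in the upstream and binding partners. *Amotl2*, an angiomotin that holds YAP at junctions and is itself a TEAD target, fell from 15.99, 22.3 and 18.8 to 6.74, 7.96 and 6.97 (log2 fold change -1.28, limma adjusted p = 0.0003). *Wwc1*, the gene of the Hippo activator KIBRA, fell from 43.3, 51.3 and 52.3 to 21.3, 23.5 and 20.8 (log2 fold change -1.12, limma adjusted p = 0.000192). Its partner *Nf2* (Merlin) fell less, with a log2 fold change of -0.55 (limma adjusted p = 0.00428, and 0.145 without scaling). In the opposite direction, *Amot*, another angiomotin, rose from 1.96, 1.78 and 1.71 to 4.79, 5.55 and 5.99 (log2 fold change 1.19, limma adjusted p = 0.000284). None of these 4 genes overlapped between groups, which was also so for 4432 of all 4486 called genes.

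Among the TEAD factors, *Tead2* rose from 2.83, 2.79 and 4.26 to 8.84, 6.07 and 12.99 (log2 fold change 1.22, limma adjusted p = 0.00589), with the highest value in LM251. *Tead1* was at 4.08, 4.497 and 3.76 in WT and 4.78, 6.05 and 6.65 in YAPKO TAZHET livers, which passed the threshold by little (log2 fold change 0.41, limma adjusted p = 0.0498) and was called in only 1 of 6 fits that each left out 1 mouse (limma adjusted p = 0.174 without LM251). *Tead3* overlapped between groups (log2 fold change -0.12, limma adjusted p = 0.559), and *Tead4* was below the filter.

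**Figure D2:**
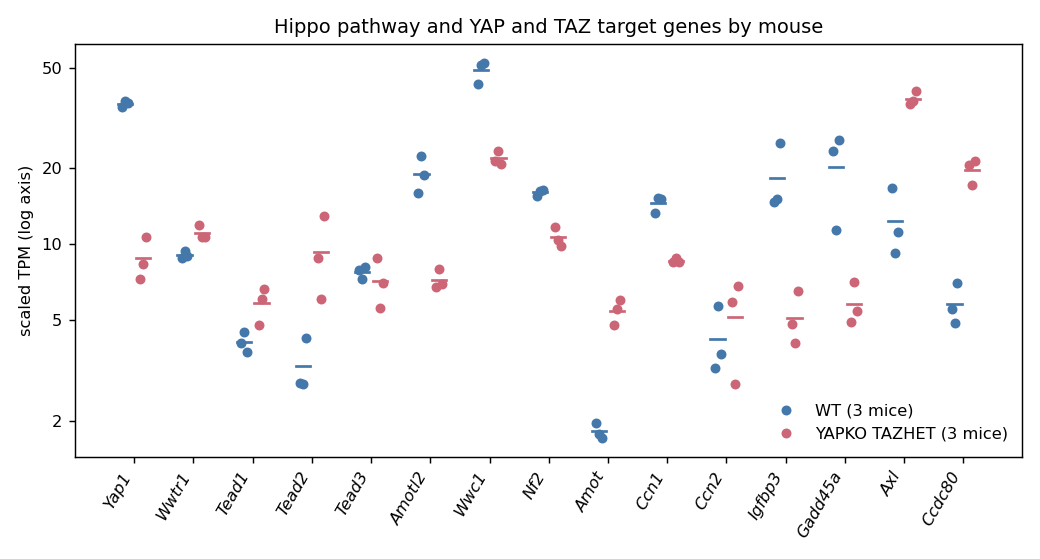
Scaled TPM of 15 genes of the Hippo pathway and of YAP and TAZ targets on a log axis, with 1 point per mouse (WT blue in the order LM226, LM227, LM230; YAPKO TAZHET red in the order LM225, LM250, LM251) and a bar at each group mean. *Yap1* is separated most clearly, and *Tead3* and *Ccn2* overlap between groups.

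YAP and TAZ targets did not move in 1 direction. Of the 22 genes of a target signature, 17 could be tested, and 4 were higher and 6 lower, with a median of -0.13 (0.03 without scaling, with 5 higher and 5 lower). *Ccn1* (Cyr61, a secreted matrix protein and a classic target; chromosome 3, 145646976 to 145649981) was at 13.3, 15.3 and 15.04 in WT and at 8.51, 8.803 and 8.51 in YAPKO TAZHET livers. All 3 YAPKO TAZHET mice lay close together below the WT mice (log2 fold change -0.69, SE 0.10, limma adjusted p = 0.00145). *Ccn2* (Ctgf) was at 3.22, 5.71 and 3.68 and 5.89, 2.803 and 6.83 and overlapped (limma adjusted p = 0.596). Larger falls were measured for *Igfbp3*, a carrier of insulin-like growth factors, from 14.7, 15.1 and 25.2 to 4.81, 4.05 and 6.51 (log2 fold change -1.63, limma adjusted p = 0.001002), and for *Gadd45a*, a stress-response gene, from 23.4, 11.4 and 25.9 to 4.93, 7.09 and 5.42 (log2 fold change -1.58, limma adjusted p = 0.00315). Rises were measured for *Axl*, a receptor tyrosine kinase of phagocytes and stromal cells, from 16.8, 9.24 and 11.2 to 35.9, 36.9 and 40.3 (log2 fold change 1.57, limma adjusted p = 0.000503), and for *Ccdc80*, a matrix protein of fibroblasts, from 5.53, 4.88 and 7.05 to 20.7, 17.1 and 21.3 (log2 fold change 1.61, limma adjusted p = 0.000131). For all 4 the groups were apart, as they were for 4432 of all 4486 called genes.

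TEAD factors bind the letters CATTCC, read on either strand (GGAATG on the other), and the promoter windows that carry them are shown because they place these letters beside genes that moved in both directions. RefSeq windows from 250 bases before to 50 after a transcription start (GRCm38.p6) were matched by symbol for 9337 tested genes. The letters were in 12.2% of the 11911 windows of tested genes and in 14.7% of the 32851 windows searched. The search did not cover every chromosome, so tested genes outside it are absent from these counts. They were in 13.3% of the windows of genes called higher, in 13.4% of those called lower and in 11.5% of the others. For genes over 2-fold lower 87 of 511 windows held them, and for genes over 2-fold higher 104 of 832. Of 11 tested target genes with a window, 5 held the letters: *Ccn1* and *Amotl2*, which fell, *Axl*, which rose, and *Crim1* and *Lats2*, which passed no threshold. The windows of 3 of them follow, with that of *Abcg5*, a sterol exporter described with the bile transporters below, each 5′ to 3′ on the strand of its gene with the TEAD letters in capitals.
Ccn1 (chr3:145649936-145650235, minus strand): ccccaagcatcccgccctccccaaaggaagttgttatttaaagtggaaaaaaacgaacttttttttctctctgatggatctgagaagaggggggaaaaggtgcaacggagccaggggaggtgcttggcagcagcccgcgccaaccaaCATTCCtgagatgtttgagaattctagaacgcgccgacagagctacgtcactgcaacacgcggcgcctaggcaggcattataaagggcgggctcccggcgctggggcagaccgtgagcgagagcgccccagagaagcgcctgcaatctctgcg
Amotl2 (chr9:102717554-102717853, plus strand): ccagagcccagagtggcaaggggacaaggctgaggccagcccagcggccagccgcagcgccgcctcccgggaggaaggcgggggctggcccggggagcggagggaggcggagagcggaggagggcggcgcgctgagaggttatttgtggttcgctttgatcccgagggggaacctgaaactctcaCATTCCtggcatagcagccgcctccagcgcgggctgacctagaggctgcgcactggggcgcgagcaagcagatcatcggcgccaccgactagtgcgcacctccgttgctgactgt
Axl (chr7:25788684-25788983, minus strand): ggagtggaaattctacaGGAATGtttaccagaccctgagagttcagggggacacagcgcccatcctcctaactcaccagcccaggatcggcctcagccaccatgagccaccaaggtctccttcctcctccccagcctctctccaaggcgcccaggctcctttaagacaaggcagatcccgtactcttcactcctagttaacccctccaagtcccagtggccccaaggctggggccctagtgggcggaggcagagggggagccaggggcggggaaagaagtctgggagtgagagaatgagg
Abcg5 (chr17:84682962-84683261, minus strand): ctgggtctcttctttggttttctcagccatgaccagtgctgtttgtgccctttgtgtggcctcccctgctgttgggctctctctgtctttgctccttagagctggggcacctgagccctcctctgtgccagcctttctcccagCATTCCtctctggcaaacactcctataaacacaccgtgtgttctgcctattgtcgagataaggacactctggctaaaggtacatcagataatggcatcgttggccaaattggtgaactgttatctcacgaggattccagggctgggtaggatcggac
The letters begin 103 bases before the start of *Ccn1*, 65 before that of *Amotl2*, 233 before that of *Axl* and 107 before that of *Abcg5*. A match is a run of letters and no measurement of binding.

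Of the 12 largest rises, 5 (*Cib3*, *Sprr1a*, *Gipc2*, *Ubd* and *Ccn5*) passed the filter only through the YAPKO TAZHET libraries, so they had to differ, and their values are given as a description with no test. The list began with *Cib3*, a calcium-binding protein gene (chromosome 8, 72204335 to 72212996), which went from 0.189, 0.807 and 0.368 to 223, 338 and 324 scaled TPM. It was below 1 in every WT liver and far above that in every YAPKO TAZHET liver (log2 fold change 7.67). *Ly6d*, a surface protein of early progenitor and epithelial cells, rose from 2.18, 2.68 and 13.7 to 751, 705 and 723 (log2 fold change 7.03, limma adjusted p = 3.72e-05). The 3 YAPKO TAZHET values were within a narrow range, and WT mouse LM230 was the highest of its group. *Slpi*, a secreted inhibitor of leukocyte proteases, rose from 1.796, 3.26 and 1.43 to 285, 371 and 359 (log2 fold change 6.78). *Lcn2*, the siderophore-binding lipocalin of injured epithelium, rose from 17.7, 14.9 and 26.1 to 1197, 1214 and 2101 (log2 fold change 6.18). *Sprr1a*, a cornified envelope gene of squamous epithelium, went from 0, 0 and 0.6002, with 2 WT mice listed at 0, to 58.96, 127 and 88.9. *Lcn2* was the only one of the 5 above 14 scaled TPM in every WT mouse. The 12 rises and the 12 falls were chosen among called genes whose groups did not overlap, so their separation is no result.

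*Gipc2*, which encodes a PDZ-domain scaffold, went from 0.156, 0.2495 and 0.152 to 54.2, 58.3 and 54.9, and *Ubd*, the ubiquitin-like modifier FAT10, from 0.402, 0 and 0.3897 to 56.7, 38.6 and 35.9. *Ccn5*, a further member of the Ccn family of *Ccn1* and *Ccn2*, went from 0.508, 0.463 and 0.563 to 54.1, 22.1 and 43.4 (log2 fold change 4.67). *Cd14*, the lipopolysaccharide co-receptor of myeloid cells, rose from 4.33, 3.56 and 4.72 to 91.6, 104 and 153 (log2 fold change 4.46, limma adjusted p = 2.75e-06). The other 3 of the 12 were *Gstm3*, *Gsta1* and *Gm3776*, with log2 fold changes of 4.86, 4.84 and 4.94. *Gstm3* and *Gsta1* encode glutathione S-transferases. *Gm3776* (chromosome 9, 78257129 to 78269166) lies near *Gsta1* (chromosome 9, 78230656 to 78242684), and whether reads were shared between them was not tested.

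**Figure D3:**
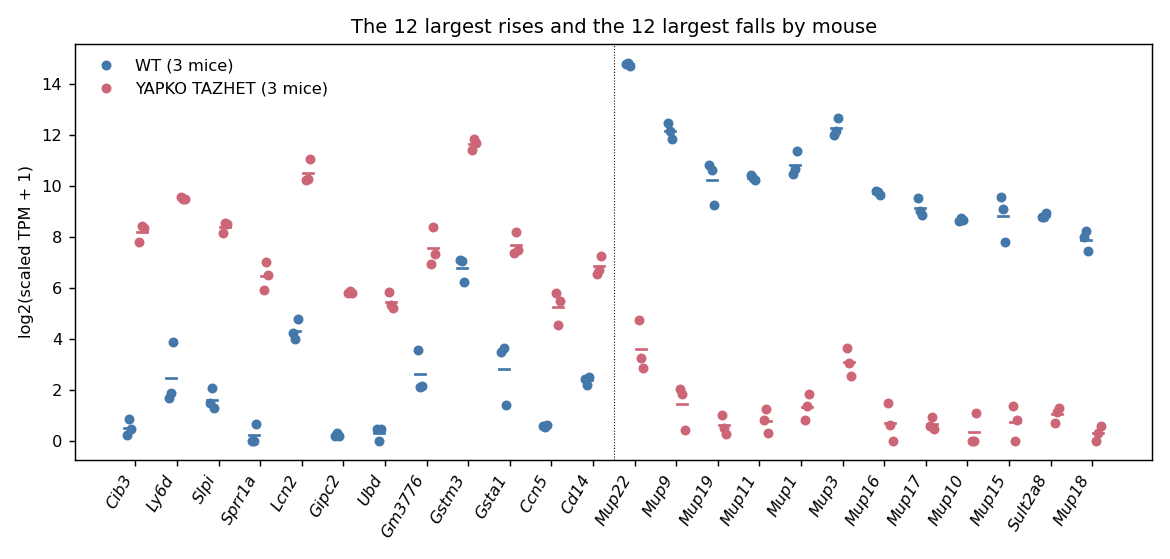
Values of log2(scaled TPM + 1) of the 12 genes with the largest rises (left of the dotted line) and the 12 with the largest falls (right), with 1 point per mouse in the order of the text and a bar at each group mean. The genes were chosen among called genes without overlap between WT (blue) and YAPKO TAZHET (red). Of the 12 falls, 11 are Mup genes.

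Of the 12 largest falls, 11 were major urinary protein (Mup) genes, which encode pheromone-carrying lipocalins that the liver secretes into urine under growth hormone, and all lie on chromosome 4. *Mup22* (chromosome 4, 60817589 to 60821463) was at 28297, 28838 and 26738 scaled TPM in WT livers, among the most abundant transcripts, and at 25.5, 8.43 and 6.19 in YAPKO TAZHET livers (log2 fold change -11.17, SE 0.41, limma adjusted p = 1.34e-06). *Mup3* went from 4076, 4514 and 6455 to 11.6, 7.31 and 4.88 and *Mup9* from 5570.0, 4564 and 3654 to 3.15, 2.54 and 0.346. Among YAPKO TAZHET mice LM225 kept the most of *Mup22* and *Mup3*. Of 19 tested Mup genes, 18 were lower and 0 higher, with a median of -8.09; 5 of them passed the filter only through WT libraries, and without these the median was -8.75. The exception was *Mup20*, also known as darcin, at 58.7, 50.4 and 100.2 and 320.0, 105 and 64.5 (log2 fold change 0.95, limma adjusted p = 0.189). All 22 listed Mup genes together took 4.35%, 3.98% and 3.78% of the deposited TPM in WT and 0.0439%, 0.0144% and 0.00902% in YAPKO TAZHET livers (exact two-sided permutation test, p = 0.1, the smallest that 3 mice against 3 allow). Mup genes are near-identical in sequence, so reads may have been split between them, which bears on single genes more than on the sum.

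The 1 gene of the 12 largest falls outside the family was *Sult2a8*, a bile acid sulfotransferase (chromosome 7, 14410686 to 14446769), which fell from 434, 437 and 485 to 0.623, 1.17 and 1.46 (log2 fold change -7.78, SE 0.16, limma adjusted p = 5.24e-08). The 3 mice of each group lay close together.

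Genes with a known sex bias in liver, which growth hormone sets, were mostly lower in these females. Of 23 tested, 17 were lower and 3 higher, with a median of -2.20, and 4 of the lower ones passed the filter only through WT libraries. Female-biased genes fell: *Cyp3a41a* from 2341, 2635 and 2045 to 41.2, 25.3 and 27.95 (log2 fold change -6.19, limma adjusted p = 5.42e-07), *Cyp3a44* from 144, 119 and 131 to 0.227, 0.0552 and 0.181, and *Sult3a1* from 224, 78.7 and 295 to 0, 0.188 and 0. *A1bg*, also female-biased, fell from 893, 465 and 367 to 5.297, 13.4 and 12.02 (log2 fold change -5.66). Male-biased members moved both ways. *Slco1a1* fell from 36.8, 18.9 and 100.01 to 0.6601, 1.23 and 1.26 and *Elovl3* from 2.34, 1.48 and 2.27 to 0.0565, 0 and 0, while *Cyp2d9* rose from 32.05, 34.5 and 63.03 to 164, 187 and 197 (log2 fold change 2.12, limma adjusted p = 0.00033) and the complement gene *C6* from 15.2, 7.92 and 20.6 to 166, 183 and 179 (log2 fold change 3.60, limma adjusted p = 5.76e-05). Of the growth hormone axis itself, the receptor *Ghr* fell from 229.7, 235 and 240.1 to 91.8, 81.1 and 77.8 (log2 fold change -1.48, limma adjusted p = 3.07e-05), *Igf1* from 159, 123 and 157 to 83.9, 66.5 and 71.6 (log2 fold change -0.97), and *Igfals*, which carries IGF1 in blood, from 157, 129 and 155 to 30.2, 32.2 and 30.5 (log2 fold change -2.20). *Socs2*, a feedback inhibitor of the receptor, was higher (log2 fold change 0.62, limma adjusted p = 0.00347), and *Stat5b* had no call (log2 fold change 0.27; 0.58 with limma adjusted p = 0.0294 without scaling).

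Most bile acid synthesis enzymes were lower. Of 16 enzymes, 12 were lower and 1 higher, with a median of -0.83 beside -0.04 for all genes. Without scaling 8 were lower. *Cyp8b1*, the sterol 12-hydroxylase that makes cholic acid, was at 59.5, 322 and 204 in WT and at 24.3, 21.9 and 22.2 in YAPKO TAZHET livers (log2 fold change -2.74, SE 0.51, limma adjusted p = 0.00399). The WT mice differed widely among themselves, while the YAPKO TAZHET mice were nearly equal. *Cyp7b1* of the alternative pathway fell from 41.3, 30.95 and 59.6 to 13.5, 8.16 and 8.92 (log2 fold change -1.98, limma adjusted p = 0.000642), and *Cyp27a1* from 521, 437 and 416 to 295, 239.6 and 239.8 (log2 fold change -0.82, limma adjusted p = 0.00212). *Cyp7a1*, the rate-limiting enzyme of the classic pathway, was at 249, 238 and 94.2 and 126, 36.4 and 43.1. Here the groups overlapped, since WT mouse LM230 was below YAPKO TAZHET mouse LM225, and the call (log2 fold change -1.59, limma adjusted p = 0.0381) was made in only 2 of 6 fits that each left out 1 mouse (limma adjusted p = 0.124 without LM251) and was lost without scaling (limma adjusted p = 0.08402). The fatty acid transporter family enzymes that activate bile acids fell as well, *Slc27a5* from 1029, 1151 and 993 to 449, 413 and 413 and *Slc27a2* from 705, 1135 and 975 to 377, 317 and 284. *Baat*, which conjugates them to taurine, had no call (log2 fold change -0.30), nor had *Cyp2c70*, which makes muricholic acids in mice (log2 fold change 0.24).

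**Figure D4:**
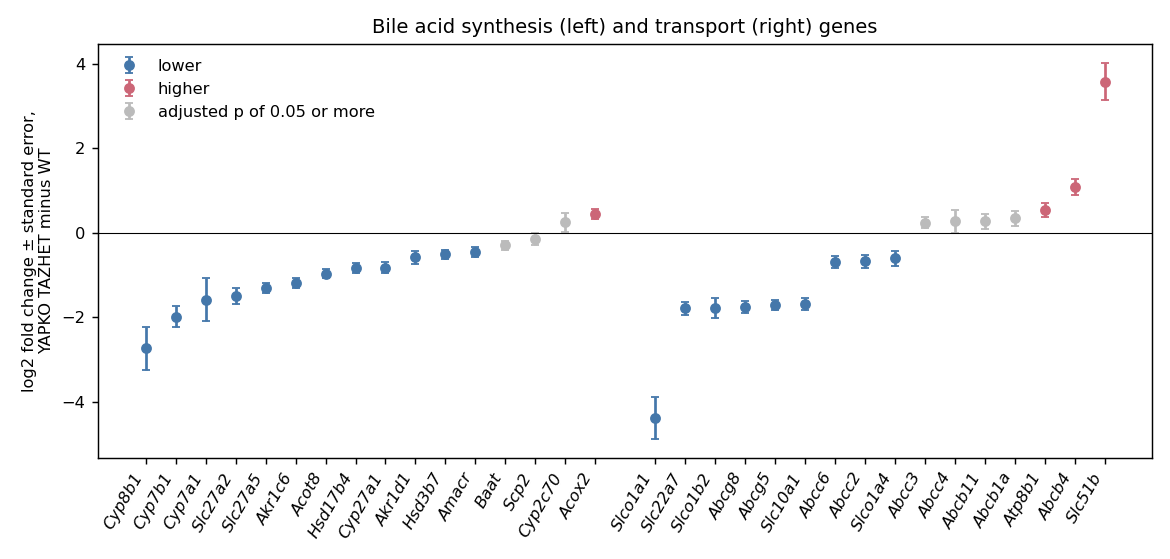
Log2 fold changes (YAPKO TAZHET minus WT) with standard errors of the 16 tested bile acid synthesis genes (left) and the 16 tested bile acid and organic anion transporters (right), 3 mice per group. Uptake carriers such as *Slco1a1* and *Slc10a1* lie below 0 and *Slc51b* and *Abcb4* above it.

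Bile acid and organic anion transporters moved in both directions. Of 16 tested, 9 were lower and 3 higher, with a median of -0.64 (6 higher and 6 lower without scaling). Carriers that take bile acids up from blood fell: *Slc10a1* (NTCP) from 612, 567 and 562 to 223, 156 and 169 (log2 fold change -1.68, limma adjusted p = 9.38e-05), *Slco1b2* from 714, 827 and 758 to 338, 187 and 171 (log2 fold change -1.79, limma adjusted p = 0.000825) and *Slco1a1*, given above, by the most (log2 fold change -4.38, limma adjusted p = 0.000363). *Slc51b*, a subunit of the exporter to blood, rose from 3.52, 0.936 and 0.171 to 17.3, 29.7 and 30.1 (log2 fold change 3.58, limma adjusted p = 0.000576), and its partner *Slc51a* was below the filter. At the canalicular membrane, the bile salt export pump *Abcb11* had no call (log2 fold change 0.27), though it was called higher without scaling (log2 fold change 0.59, limma adjusted p = 0.0338), the phospholipid flippase *Abcb4* rose from 105, 159 and 106 to 226, 306 and 247 (log2 fold change 1.08, limma adjusted p = 0.00263), and both subunits of the sterol exporter fell. *Abcg5* went from 121, 131 and 107 to 33.6, 34.6 and 39.3 and *Abcg8* from 84.97, 109 and 78.01 to 25.3, 24.9 and 27.7, with log2 fold changes of -1.71 and -1.75. The 2 genes are transcribed in opposite directions from 1 region, and their promoter windows share 209 bases.

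Of 22 hepatocyte transcription factors and nuclear receptors, 15 were lower and 1 higher, with a median of -0.45 (7 lower without scaling, and 10, 9 and 10 called without LM226, LM227 or LM251). *Hnf4a*, the master regulator of hepatocytes, overlapped between groups (log2 fold change -0.11). The largest falls were in nuclear receptors, and the 1 rise was that of *Foxa3* (log2 fold change 0.65, limma adjusted p = 0.0255; limma adjusted p = 0.0812 without WT mouse LM226, and called in 2 of 6 fits that each left out 1 mouse), whose promoter drives the Cre. *Nr1i3*, the xenobiotic receptor CAR, went from 208, 354 and 191 to 75.05, 59.99 and 64.7 (log2 fold change -1.85, limma adjusted p = 0.000493), and *Ppara*, the receptor that drives fatty acid oxidation, from 80.6, 82.7 and 56.6 to 34.1, 14.6 and 13.5 (log2 fold change -1.88, limma adjusted p = 0.002703). The bile acid receptor *Nr1h4* (FXR) went from 119.8, 129.8 and 132 to 74.1, 48.4 and 55.3 (log2 fold change -1.11, limma adjusted p = 0.00102), and its target *Nr0b2* (SHP) from 83.5, 92.1 and 89.4 to 46.3, 56.01 and 41.6. In *Ppara* and *Nr1h4*, LM225 was the YAPKO TAZHET mouse closest to WT.

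Drug-metabolising cytochrome P450 genes fell in 20 of 24 and rose in 2, with a median of -1.48. *Cyp2f2*, of periportal hepatocytes, fell from 1379, 1152 and 1254 to 44.2, 61.2 and 38.7 (log2 fold change -4.71, limma adjusted p = 1.22e-06), and *Cyp2c40* from 864, 601 and 908 to 46.95, 15.9 and 21.03 (log2 fold change -4.90). *Cyp3a11*, the main inducible CYP3A of mouse liver, rose from 2331, 2632 and 2478 to 6744, 6711 and 5694 (log2 fold change 1.36, limma adjusted p = 0.000225), and *Cyp2b10*, the main target of CAR, fell from 26.5, 24.3 and 30.6 to 2.99, 4.91 and 3.598 (log2 fold change -2.56, limma adjusted p = 2.12e-05). All 100 listed P450 genes took 3.30% ± 0.26 of the deposited TPM in WT and 1.83% ± 0.34 in YAPKO TAZHET livers (SD, n = 3, exact two-sided permutation test, p = 0.1). Among 27 conjugating enzymes, 16 were lower and 8 higher (median -0.57), and the directions went by family. The called UDP-glucuronosyltransferases and sulfotransferases of this list fell, while *Sult1e1*, which is not in it, was higher (log2 fold change 3.58, limma adjusted p = 0.00556). An example is *Ugt2b1*, from 271, 292 and 270.4 to 31.4, 43.6 and 41.6 (log2 fold change -2.82). Glutathione S-transferases of the mu, pi and alpha classes rose, for example *Gstm3* from 135, 130.1 and 73.2 to 2723, 3619.9 and 3250.3 and *Gstm1* from 2099.8, 2023 and 2014 to 4366, 4813 and 5118, where they were called, apart from *Gsta3*, which fell (log2 fold change -1.12) as the called theta and zeta class genes did. Genes of these families are close copies of each other, and their single values are uncertain to that extent.

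Genes of pericentral hepatocytes, the zone around the central vein that Wnt signals set, were lower in 14 of 19 and higher in 0, with a median of -1.21. *Cyp2e1* fell from 6622, 10516 and 8918 to 2045, 994 and 1150.1 (log2 fold change -2.68, limma adjusted p = 0.000278). Glutamine synthetase, *Glul*, was at 787, 864 and 953 in WT and at 513, 138 and 144 in YAPKO TAZHET livers (log2 fold change -1.99, limma adjusted p = 0.00912). LM225 kept most of the WT level and LM250 and LM251 did not. The same mouse stood apart for the glutamate transporter *Slc1a2*, at 57.4, 66.5 and 50.8 and 32.7, 4.54 and 4.499 (log2 fold change -2.55, limma adjusted p = 0.01297). The Wnt targets *Axin2* (log2 fold change -0.73, limma adjusted p = 0.0176; limma adjusted p = 0.0659 without YAPKO TAZHET mouse LM250, and called in 3 of 6 fits that each left out 1 mouse; limma adjusted p = 0.0972 without scaling) and *Nkd1* (log2 fold change -0.94, limma adjusted p = 0.00131) were lower, and *Lgr5* had no call (log2 fold change -0.74). The endothelial Wnt genes *Wnt2* and *Rspo3* had none either, with log2 fold changes of 0.11 and 0.33 (without scaling *Rspo3* had limma adjusted p = 0.0255), and *Wnt9b*, which passed the filter only through YAPKO TAZHET libraries, went from 0.994, 0.705 and 0.616 to 1.605, 3.53 and 3.83.

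Fatty acid oxidation and ketogenesis fell in 26 of 30 genes and rose in 1, with a median of -0.77. *Cpt1a*, which lets fatty acids into mitochondria, was at 163, 250.4 and 156 and 155, 77.2 and 72.2 (log2 fold change -0.96, limma adjusted p = 0.0355; limma adjusted p = 0.125 without YAPKO TAZHET mouse LM251, and called in 2 of 6 fits that each left out 1 mouse; log2 fold change -0.64 and limma adjusted p = 0.136 without scaling). *Acot1* fell from 21.8, 38.5 and 53.4 to 4.62, 7.68 and 5.53, *Cyp4a10* from 404, 740.2 and 829 to 138, 208 and 149 and *Acsl1* from 357, 345 and 435 to 123, 149 and 124, with log2 fold changes of -2.42, -1.95 and -1.51. The one gene that rose was *Pdk4*, a kinase that turns pyruvate dehydrogenase off, from 2.33, 4.12 and 3.05 to 9.77, 17.98 and 15.4 (log2 fold change 1.87, limma adjusted p = 0.000604). Fatty acid and triglyceride synthesis was lower as well, in 12 of 23 genes with 1 higher and a median of -0.68 (7 called without LM251). *Thrsp*, a lipogenic factor, fell from 1982, 987 and 1288 to 185, 96.5 and 105 (log2 fold change -3.45, limma adjusted p = 0.000103) and *Srebf1*, the transcription factor of the pathway, from 381, 186 and 284 to 55.5, 87.7 and 107 (log2 fold change -1.74). *Fasn* had no call (log2 fold change -0.68).

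Cholesterol synthesis and uptake split, with 3 genes higher and 6 lower of 22 and a median of 0.38. The called share was 40.9%, near the 38.2% of all genes. Single mice decided these counts: 1 and 4 were called without LM226, 10 and 5 without LM230, 0 and 5 without LM250 and 0 and 4 without LM251, and without scaling the counts were 12 and 3. *Hmgcs1*, an early enzyme of the pathway, was at 217, 155 and 424 and 480.3, 623 and 504 (log2 fold change 1.13, limma adjusted p = 0.0246; limma adjusted p = 0.0807 without YAPKO TAZHET mouse LM250, and called in 2 of 6 fits that each left out 1 mouse). Nuclear-encoded subunits of oxidative phosphorylation were lower in 19 of 34 and higher in 0, with a median of -0.47; without scaling 6 were lower and 1 higher. The changes were small, the largest being *Ndufb10* of complex I, from 279.7, 336 and 331 to 147, 200.4 and 190.3 (log2 fold change -0.82). Of 13 mitochondrially encoded genes, 0 were higher and 0 lower by limma at an adjusted p under 0.05, and 0 had an unadjusted p under 0.05 (median -0.27, 0.06 without scaling), and they took 13.3% ± 0.36 and 13.5% ± 1.6 of the deposited TPM (SD, n = 3, exact two-sided permutation test, p = 0.8).

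Urea cycle and amino acid catabolism genes were lower in 17 of 31 and higher in 1 (median -0.65). *Cps1*, which starts the urea cycle, had no call (log2 fold change -0.12), and *Otc*, the next step, fell from 253, 250.4 and 222 to 124, 132 and 132 (log2 fold change -0.89, limma adjusted p = 0.000351). The tyrosine pathway fell at *Tat* (log2 fold change -1.22) and *Hpd* (-1.44), the second from 3378, 4189 and 3245 to 1428, 1241 and 1283 (limma adjusted p = 0.000198). In glucose metabolism 7 of 27 genes were higher and 5 lower (median 0.01), with 14 and 3 without scaling and 3 and 3 without LM251. The called share was 44.4%, beside 38.2% of all genes. The gluconeogenic genes *Pck1* and *G6pc* had no call. Isoforms of adult hepatocytes fell, such as liver pyruvate kinase *Pklr* from 342, 257 and 247 to 161, 119 and 89.9 (log2 fold change -1.21, limma adjusted p = 0.0031996) and glycogen synthase *Gys2* from 147, 256 and 168 to 93.2, 52.9 and 51.5 (log2 fold change -1.53). Isoforms of other and fetal tissues rose, such as *Pkm* from 12.996, 9.54 and 11.5 to 30.3, 29.8 and 35.5 (log2 fold change 1.42, limma adjusted p = 0.000151), *Pfkp* from 2.04, 1.14 and 1.695 to 8.13, 7.55 and 8.76 (log2 fold change 1.81, limma adjusted p = 9.21e-05) and hexokinase *Hk2*, which passed the filter only through YAPKO TAZHET libraries, from 0.543, 0.489 and 0.426 to 3.85, 3.18 and 2.22.

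Secreted plasma proteins were lower in 12 of 30 and higher in 5 (median -0.25), and the split reversed to 4 lower and 11 higher without scaling, with a median of 0.07. *Alb* was at 69314, 88464 and 96577 in WT and at 43663, 59387 and 62839 in YAPKO TAZHET livers. The groups did not overlap, but the difference missed the threshold (log2 fold change -0.62, limma adjusted p = 0.0858). *Serpina1c*, an α1-antitrypsin gene, fell from 8673, 8946 and 10329 to 2729.5, 2648 and 2860.0 (log2 fold change -1.76, limma adjusted p = 6.54e-05) and *Ttr*, transthyretin, from 7300.1, 8377 and 10360.1 to 3922, 4633 and 5021 (log2 fold change -0.93). Iron and haem carriers rose: transferrin, *Trf*, from 11860.2, 13159 and 13400.2 to 24466, 29765 and 30848 (log2 fold change 1.14, limma adjusted p = 0.0018003), and hemopexin, *Hpx*, from 4148, 3271 and 3579 to 10455, 10904 and 11433 (log2 fold change 1.58, limma adjusted p = 0.000162).

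The acute phase response rose in 12 of 24 genes and fell in 4, with a median of 0.61. Haptoglobin, *Hp*, which binds free haemoglobin, rose from 1950.0, 2317 and 2824 to 9342, 9245 and 9311, and the YAPKO TAZHET mice were nearly equal (log2 fold change 1.99, limma adjusted p = 8.22e-05). The serum amyloid gene *Saa1* rose from 158, 54.7 and 47.7 to 887, 308 and 429 (log2 fold change 2.70, limma adjusted p = 0.00379), *Saa2* from 43.2, 14.5 and 19.5 to 592, 168 and 205 (log2 fold change 3.51) and *Orm2* from 119.5, 68.2 and 139 to 2103, 780.5 and 1374 (log2 fold change 3.64). In each of these 3 genes LM225 was the highest of all mice. *Saa4* fell from 199.9, 149 and 167 to 47.8, 44.2 and 22.1 (log2 fold change -2.21, limma adjusted p = 0.000513).

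Bile duct markers were low in both groups. Of 22 biliary and ductular genes, 14 passed the filter, and 5 of them were higher and 1 lower (median 0.12). The called share was 42.9%, beside 38.2% of all genes. Through each group alone 1 gene passed, and of the other 12, 4 were higher and 0 lower. *Krt19*, the keratin of mature ducts, was at 1.82, 1.095 and 7.44 in WT and 0.708, 1.65 and 0.376 in YAPKO TAZHET livers, with the highest value in WT mouse LM230 and the groups overlapping (limma adjusted p = 0.139). *Krt7* stayed below 1 in all mice, at 0.523, 0.433 and 0.873 and 0.6496, 0.707 and 0.607, and was not tested. *Epcam*, the adhesion molecule of duct epithelium, went from 2.67, 1.87 and 3.91 to 0.203, 0.494 and 0.324 (log2 fold change -1.48). It passed the filter only through the WT libraries, so it had to differ, and its values are a description. *Sox9*, the transcription factor of ductal progenitors, rose from 1.96, 1.22 and 3.22 to 6.66, 10.2 and 9.94 (log2 fold change 1.69, limma adjusted p = 0.001301). *Cldn7*, an epithelial claudin, rose from 0.576, 0.341 and 1.49 to 10.1, 18.6 and 16.8 (log2 fold change 3.17, limma adjusted p = 0.000104) and *Prom1* from 5.33, 4.396 and 1.43 to 8.57, 18.4 and 16.8. Thus *Sox9*, *Cldn7* and *Prom1* were higher and *Krt19* had no call. In the Notch pathway, which induces ducts, 2 of 11 genes were higher and 0 lower (median -0.11, 0.16 without scaling). The called share was 18.2%, below the 38.2% of all genes. The 2 were *Hey1* (log2 fold change 0.90, limma adjusted p = 0.00497) and *Notch2* (log2 fold change 0.45, limma adjusted p = 0.0327, and 0.0929 without WT mouse LM227). Only 1 gene was called in each fit that left out LM227, LM230 or a YAPKO TAZHET mouse. Of 18 fetal liver genes, 9 were tested, and 5 were higher and 0 lower (median 1.86). The 5 were *Ly6d*, given above among the largest rises, *Scd2*, *Tspan8*, *Afp* and *Igf2bp3*. Of the 8 that passed the filter in both groups, 4 were higher and 0 lower, with a median of 1.02. *Afp*, α-fetoprotein, rose from 0.54002, 0.319 and 1.75 to 4.72, 4.33 and 7.81 (log2 fold change 1.86, limma adjusted p = 0.00197), and *Igf2bp3*, an RNA-binding protein of fetal tissues that passed only through YAPKO TAZHET libraries, from 0.172, 0.0306 and 0.0278 to 7.86, 9.38 and 8.81. *Igf2* and *Dlk1* were below the filter.

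Tight junction genes rose in 11 of 17 and fell in 1 (median 0.64). *Cldn1*, a main hepatocyte claudin, rose from 13.2, 10.02 and 14.9 to 35.4, 65.9 and 60.9 (log2 fold change 1.97, limma adjusted p = 0.0005) and *Tjp3*, a scaffold of the junction, from 7.04, 6.54 and 8.95 to 24.1, 49.03 and 50.2 (log2 fold change 2.25, limma adjusted p = 0.00045). In both LM225 was the lowest YAPKO TAZHET mouse. Actin, tubulin, keratin and annexin genes rose in 22 of 27 and fell in 2 (median 1.02). The hepatocyte keratins rose together, *Krt8* from 238, 185 and 237 to 906, 1244 and 1248 (log2 fold change 2.35, limma adjusted p = 3.61e-05) and *Krt18* from 191, 153 and 235 to 742, 975 and 1127 (log2 fold change 2.29, limma adjusted p = 9.69e-05). *Anxa2*, a membrane-binding annexin, rose from 19.6, 11.8 and 15.6 to 117, 144 and 188 (log2 fold change 3.18) and *S100a11* from 19.5, 14.03 and 22.5 to 119, 121 and 139 (log2 fold change 2.71).

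Collagen genes rose in 13 of 18, and 0 fell (median 1.58); 1 passed the filter only through YAPKO TAZHET libraries. *Col1a1*, the fibrillar collagen of scar, went from 5.28, 1.23 and 3.14 to 40.7, 23.5 and 35.6 (log2 fold change 3.11, limma adjusted p = 0.000385), *Col1a2* from 7.35, 3.31 and 6.26 to 38.3, 23.3 and 36.3 (log2 fold change 2.36) and *Col3a1* from 11.4, 6.78 and 9.61 to 49.6, 34.6 and 46.1 (log2 fold change 2.13). The basement membrane collagen *Col4a1* rose from 8.98, 8.501 and 9.94 to 36.02, 35.5 and 38.2 (log2 fold change 1.89, limma adjusted p = 1.02e-05). All 44 listed collagen genes took 0.0361% ± 0.0024 of the deposited TPM in WT and 0.0667% ± 0.0033 in YAPKO TAZHET livers (SD, n = 3, exact two-sided permutation test, p = 0.1), a small share in both groups. Matrix glycoproteins and remodelling enzymes rose in 24 of 28 and fell in 1 (median 1.11). Of these 28, 8 passed the filter only through YAPKO TAZHET libraries, and of the other 20, 16 rose and 1 fell; 13 rose and 1 fell without LM250, and the same counts held without LM251. *Nid1*, the basement membrane linker nidogen, rose from 6.67, 5.19 and 5.54 to 41.5, 58.9 and 57.4 (log2 fold change 2.97, limma adjusted p = 9.32e-06). *Timp1*, a protease inhibitor of fibrosis, went from 0.983, 0 and 0.136 to 12.1, 9.76 and 13.1, and *Mmp12*, the macrophage elastase, from 0.244, 0.0324 and 0.236 to 9.97, 6.96 and 6.801. *Fn1*, fibronectin, had no call (log2 fold change -0.42).

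Markers of stellate cells, the collagen-making pericytes of the liver, gave 9 of 21 higher and 2 lower (median 0.42), the lower ones being *Colec10* and *Ecm1*, the second with limma adjusted p = 0.0273, 0.0604 without scaling, and called in 3 of 6 fits that each left out 1 mouse. Markers of quiescent cells had no call, *Lrat* at 9.27, 7.39 and 8.72 and 2.19, 9.15 and 8.68, with LM225 alone low, and *Reln* at 8.58, 10.9 and 7.96 and 7.55, 13.3 and 16.8. The myofibroblast gene *Acta2* had none either (log2 fold change -0.85). *Pdgfrb*, the growth factor receptor of these cells, rose from 3.51, 2.62 and 3.02 to 10.3, 11.7 and 15.4 (log2 fold change 1.72, limma adjusted p = 0.000147), *Vim* from 22.7, 15.7 and 20.9 to 57.7, 48.6 and 61.5 (log2 fold change 1.46) and *Lgals1* from 24.99, 28.2 and 32.3 to 62.3, 92.1 and 87.9 (log2 fold change 1.46). *Des*, desmin, had no call (log2 fold change 0.16).

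Macrophage genes were higher. Of 16 markers of Kupffer cells, the resident macrophages, 12 were higher and 2 lower (median 1.06), the lower ones being *Cd163* and *Nr1h3*, the second of which hepatocytes also express. Neither call held without scaling (limma adjusted p = 0.102 and 0.439), and *Cd163* was called in 2 of 6 fits that each left out 1 mouse. *Clec4f*, which is particular to them, was at 114, 73.2 and 90.7 and 131, 204 and 215 (log2 fold change 0.97, limma adjusted p = 0.009796), *Vsig4* at 60.2, 25.5 and 40.6 and 82.8, 83.9 and 125 (log2 fold change 1.24), and *Marco*, a scavenger receptor, at 13.7, 4.55 and 7.602 and 51.7, 88.6 and 53.9 (log2 fold change 2.84, limma adjusted p = 0.000492). *Timd4*, of long-lived resident cells, had no call (log2 fold change 0.40). Of 23 phagocyte markers of recruited and lipid-associated macrophages, 21 were higher and 0 lower (median 1.64); 6 passed the filter only through YAPKO TAZHET libraries, and of the other 17, 15 were higher. *Trem2* rose from 1.1999, 0.348 and 0.635 to 14.1, 14.7 and 18.9 (log2 fold change 3.31, limma adjusted p = 1.69e-05) and *Gpnmb* from 0.0811, 0.0288 and 0.0525 to 9.92, 3.64 and 3.93, with LM225 the highest. *Cd63* rose from 4.595, 2.94 and 7.65 to 90.9, 97.5 and 108 (log2 fold change 4.11) and *Lpl*, lipoprotein lipase, from 10.9, 4.72 and 9.36 to 118, 187 and 233 (log2 fold change 4.29). *Cd63*, *Cd9*, *Lpl* and *Cd14* are also made by epithelial cells, and which cells their transcripts came from was not measured.

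Chemokines rose in 11 of 20 and fell in 2 (median 0.94); 3 passed only through YAPKO TAZHET libraries, and 6 rose and 2 fell without LM250, and 5 and 2 without LM251. *Ccl2*, which recruits monocytes, went from 0.9202, 0.163 and 2.08 to 12.5, 5.73 and 9.91 (log2 fold change 2.39, limma adjusted p = 0.00164), *Cxcl1*, which recruits neutrophils, from 6.93, 6.41 and 12.1 to 67.4, 38.1 and 53.2 (log2 fold change 2.52, limma adjusted p = 0.000228) and *Cxcl14* from 3.28, 2.62 and 1.39 to 59.5, 21.1 and 23.99 (log2 fold change 3.27). Neutrophil genes were few: of 15, 5 passed the filter, and *Ly6g* was listed at 0 in all mice. Of the 5, 2 were higher and 0 lower, a called share of 40% beside 38.2% of all genes. The 2 were *Lcn2*, given above, and *S100a8*, at 1.03, 1.09 and 2.49 and 14.5, 3.57 and 4.63 (log2 fold change 1.58, limma adjusted p = 0.0213; limma adjusted p = 0.0707 without WT mouse LM226, and called in 4 of 6 fits that each left out 1 mouse). LM225 was well above the other YAPKO TAZHET mice for *S100a8*. Of 11 tested T, B and NK cell markers, 4 were higher and 0 lower (median 0.44), a called share of 36.4% beside 38.2% of all genes. Of the 11, 2 passed only through YAPKO TAZHET libraries. Among the 4 was the pan-leukocyte *Ptprc* (CD45), from 6.16, 4.097 and 4.21 to 9.698, 8.28 and 9.95 (log2 fold change 0.84, limma adjusted p = 0.00418). Without LM251 1 was called, 2 were called without each of LM225, LM250, LM227 and LM230, and *Cd3e* had none (log2 fold change 0.07).

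Of 27 endothelial markers 4 were higher and 6 lower, a called share near the 38.2% of all genes, and without scaling the balance turned to 7 higher and 2 lower (median -0.07, 0.21 without scaling; 3 and 3 without LM227, 2 and 4 without LM250). The pan-endothelial *Pecam1* had no call (log2 fold change 0.03), nor had the sinusoidal *Stab2* (log2 fold change -0.12). The VEGF receptor *Kdr* fell from 20.6, 19.2 and 20.4 to 8.23, 9.53 and 12.96 (log2 fold change -0.93, limma adjusted p = 0.00241) and *Oit3*, of sinusoidal cells, from 20.7, 21.4 and 22.1 to 8.62, 9.21 and 11.6 (log2 fold change -1.06). *Bmp6*, the endothelial signal of the iron pathway, rose from 4.08, 3.297 and 3.27 to 10.4, 21.5 and 17.5 (log2 fold change 1.89, limma adjusted p = 0.000533), and its hepatocyte target *Hamp*, hepcidin, had no call (log2 fold change -0.40). Interferon-stimulated genes gave 2 higher and 6 lower of 27, a called share below the 38.2% of all genes, and 6 higher and 1 lower without scaling (median -0.10, 0.21 without scaling; 2 and 3 without LM226, 2 and 2 without LM251). *Ifit1* fell from 13.1, 10.5 and 12.3 to 6.85, 3.71 and 3.97 (log2 fold change -1.19, limma adjusted p = 0.00248) and *Oasl1* rose from 13.6, 8.97 and 15.1 to 29.4, 39.4 and 29.9 (log2 fold change 1.34, limma adjusted p = 0.00131).

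The genes of the G2 and M phases named here were at low levels in both groups. Of 22 tested genes of the G2 and M phases, 18 were higher and 0 lower (median 0.93), but 13 of these passed the filter only through YAPKO TAZHET libraries. Of the other 9, 7 were higher, 6 without LM225 or LM250, and 4 without LM251. *Mki67* went from 0.657, 0.396 and 1.07 to 2.295, 2.08 and 2.44 and *Ccnb1* from 0.501, 0.16000 and 0.583 to 3.36, 2.05 and 3.71, both among the 13. *Ccnb2*, which passed in both groups, went from 1.06, 1.301 and 1.97 to 4.52, 4.18 and 4.57 (log2 fold change 1.17, limma adjusted p = 0.001004). For G1 and S phases 7 of 24 were higher and 2 lower (median 0.16), a called share of 37.5% beside 38.2% of all genes. Of the 24, 2 passed only through YAPKO TAZHET and 1 only through WT libraries. Without LM250 3 were higher and 2 lower, and without LM251 1 and 1. *Ccnd1*, the cyclin of G1 entry, was lower at 117, 115 and 94.5 and 78.3, 80.8 and 68.6 (log2 fold change -0.51, limma adjusted p = 0.0115; limma adjusted p = 0.0548 without YAPKO TAZHET mouse LM251; log2 fold change -0.19 and limma adjusted p = 0.312 without scaling), and *Pcna* had no call (log2 fold change -0.11). The p53 target and growth arrest list gave 7 higher and 1 lower of 19 (median 0.25), a called share of 42.1% beside 38.2% of all genes. *Cdkn1a*, the cell cycle inhibitor p21, rose from 1.06, 1.03 and 2.76 to 15.6, 20.5 and 28.5 (log2 fold change 3.13, limma adjusted p = 0.000122), while *Mdm2* had no call (log2 fold change 0.19; 0.50 with limma adjusted p = 0.0117 without scaling).

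Immediate-early genes rose in 11 of 16 and fell in 0 (median 1.22). *Klf6* went from 4.88, 5.69 and 5.296 to 22.3, 19.6 and 19.4 (log2 fold change 1.77, limma adjusted p = 1.91e-05), *Myc* from 3.396, 1.07 and 2.67 to 8.79, 9.77 and 9.42 (log2 fold change 1.68, limma adjusted p = 0.00147), *Jun* from 9.58, 8.74 and 12.8 to 33.4, 33.6 and 29.3 (log2 fold change 1.55) and *Fos* from 2.37, 3.09 and 4.88 to 10.8, 6.99 and 8.26 (log2 fold change 1.14). In *Fos*, *Egr1* and *Junb* WT mouse LM230 was the highest of its group. The NRF2 antioxidant response rose in 9 of 21 and fell in 1 (median 0.43; 15 rose without scaling). *Nqo1*, its classic target, went from 18.1, 18.9 and 16.7 to 44.7, 48.99 and 40.7 (log2 fold change 1.27, limma adjusted p = 9.15e-05), *Srxn1* from 30.3, 30.9 and 32.04 to 78.9, 104 and 81.6 (log2 fold change 1.47) and *Hmox1*, haem oxygenase, from 30.1, 26.1 and 21.5 to 71.5, 73.9 and 73.8 (log2 fold change 1.47, limma adjusted p = 0.000102), while *Gclc* had no call. Genes of ER stress and the ATF4 response gave 4 higher and 4 lower of 21 (median 0.21), a called share of 38.1% beside 38.2% of all genes. Of the 21, 2 passed only through YAPKO TAZHET libraries. Without scaling 8 were higher and 1 lower. These counts were 9 and 5 without LM230, 3 and 2 without LM227, and 1 and 3 without LM250 or LM251. *Atf3* rose from 3.59, 1.91 and 3.48 to 12.2, 9.61 and 8.86 and *Herpud1* fell from 312, 414 and 492 to 203, 119 and 162. None of 29 cytosolic ribosomal protein genes was called by limma at an adjusted p under 0.05, and 0 had an unadjusted p under 0.05 (median -0.04), while 14 were higher without scaling.

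**Figure D5:**
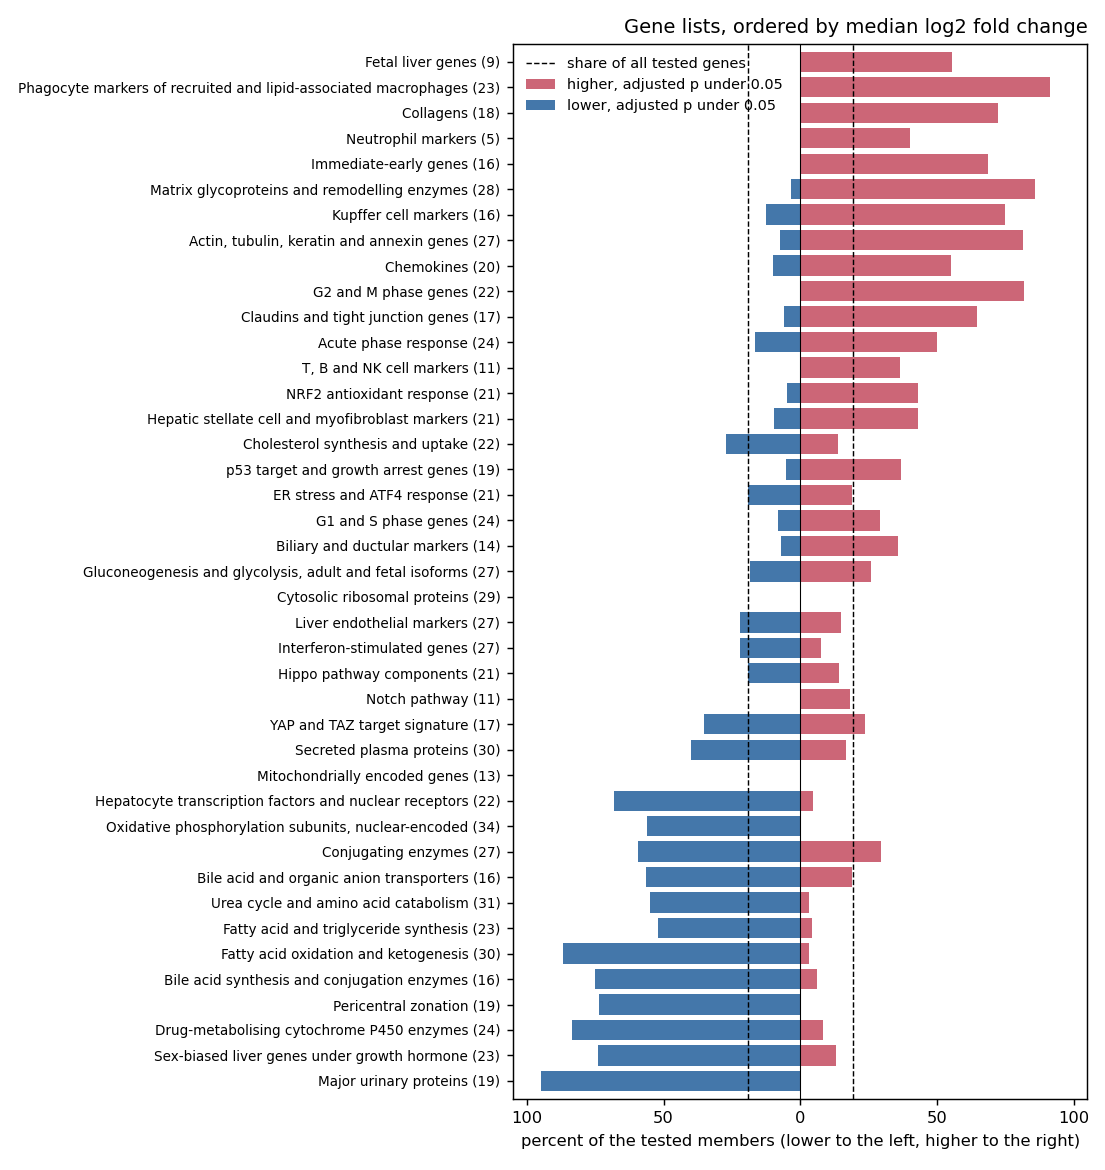
For each of 41 gene lists, the percent of tested members (number in brackets) called higher (red, to the right) and lower (blue, to the left), with dashed lines at the 19.2% and 19% of all tested genes. Macrophage, matrix, cytoskeleton and G2 and M phase lists extend farthest to the right, and Mup, fatty acid oxidation and P450 lists farthest to the left. The bars include members that passed the filter through 1 group alone. Through YAPKO TAZHET libraries alone these were 13 of 22 G2 and M phase, 8 of 28 matrix and 6 of 23 phagocyte members. Through WT libraries alone 5 of 19 Mup members passed.

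The labels were checked against defining markers. The hepatocyte gene *Alb* was at 6.57% to 8.29% of the deposited TPM in WT and 5.16% to 6.75% in YAPKO TAZHET livers. The pancreatic *Pnlip* and the renal *Umod* were listed at 0 in all mice, and *Krt5* and *Krt14* of skin were at most 0.66 and 1.05 scaled TPM. The pancreatic elastase gene *Cela1* was at 22.5, 19.8 and 17.3 in WT and 7.72, 8.48 and 12.2 in YAPKO TAZHET livers (log2 fold change -1.01, limma adjusted p = 0.00276), and the intestinal fatty acid carrier gene *Fabp2* at 107, 99.5 and 121 and 27.7, 29.9 and 32.2 (log2 fold change -1.83, limma adjusted p = 1.78e-05). The pancreatic *Prss2* was at 0 in every mouse but LM251 (0.291 scaled TPM), and the intestinal *Vil1* was at most 0.933. Which cells the *Cela1* and *Fabp2* transcripts came from was not measured. Haemoglobin genes took 0.0829%, 0.270% and 0.177% of the deposited TPM in LM225, LM250 and LM251 and 0.0868% to 0.0895% in WT livers, and *Hbb-bs* and *Hba-a1* had no call. The 3 mice of each group differed less from each other than the groups did, with 80.7% of the variance on the first principal component, which separated the groups, and 6.76% on the second. On the second, LM225 was at -25.3 and LM250 and LM251 at 12.4 and 10.8. LM225 was over 2-fold from the mean of the other 2 YAPKO TAZHET mice for 211 genes, and for the other 5 mice this number ran from 69 to 142. No label sets this mouse apart.

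The 5 called genes with the widest spread within YAPKO TAZHET livers were *Slc1a2*, *Dbp*, *Sult1e1*, *Cyp3a41b* and *Cyp2a4*. *Dbp*, a clock output gene, was at 231, 282 and 272 in WT and 136, 10.2 and 13.1 in YAPKO TAZHET livers (log2 fold change -3.23, limma adjusted p = 0.0151; limma adjusted p = 0.0585 without YAPKO TAZHET mouse LM251). *Sult1e1*, the oestrogen sulfotransferase, was at 0.201, 2.46 and 2.43 and 94.2, 11.3 and 19.7 (log2 fold change 3.58, limma adjusted p = 0.00556), and *Cyp2a4* at 1874, 1885 and 2120.3 and 1371, 311 and 199.5 (limma adjusted p = 0.0224; limma adjusted p = 0.0741 without YAPKO TAZHET mouse LM250, and called in 1 of 6 fits that each left out 1 mouse). In all 3, LM225 was the mouse apart from LM250 and LM251, nearer to WT for *Dbp* and *Cyp2a4* and farther from it for *Sult1e1*. Within WT livers the widest spread was in *Cyp8b1*, *Cyp3a16*, *Cyp3a41b*, *Igfbp1* and *Mup12*. *Igfbp1*, a fasting-responsive binding protein, was at 17.7, 174 and 53.6 in WT and at 571, 623 and 719 in YAPKO TAZHET livers (log2 fold change 3.50, limma adjusted p = 0.004203), and *Cyp3a41b* was at 126, 184 and 14.2 and 0.216, 6.93 and 5.11, with WT mouse LM230 far below the other WT mice. Time of day and feeding of each mouse are not given in the sources used here, and their part in these spreads was not tested.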

How the data were processed

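RNA-seq of whole liver was analysed for 3 YAPKO TAZHET and 3 WT mice. The authors aligned reads to GRCm38 in CLC Genomics and deposited TPM per gene and mouse. Read counts are not used here, so the depth behind each value is unknown, no counting interval is given, and an exact 0 can be a failed estimate. Whether counting used strand is not given in the sources used here. The same table holds the comparison the authors made with edgeR after TMM normalization (fold changes, p-values, FDR and Bonferroni values, maximum group means), which was not used, and the C57BL/6 table was not used.

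Genes reaching 1 TPM in 3 or more of the 6 libraries were kept, TPM was scaled by a trimmed mean of log ratios (30% of ratios and 5% of mean levels trimmed), and log2(scaled TPM + 1) was tested with limma 3.58.1 in R 4.3.3 (empirical Bayes with a trend, two-sided, Benjamini-Hochberg over all 11741 genes, threshold 0.05). The code was tested on simulated data. Summed shares of TPM were compared by an exact two-sided permutation test (scipy 1.17.1). Alternatives were a pseudocount of 0.1, no filter or 5 TPM, no scaling, quantile normalization, robust shrinkage, a threshold of 0.01, and each mouse left out.

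The members and the 41 gene lists were chosen with earlier results of these data known. Named genes were *Yap1*, *Wwtr1*, TEAD genes, *Ccn1* and *Ccn2*, the 12 largest rises and falls without overlap, the first 2 and up to 4 most changed called members of each list, the 5 most variable called genes and the 5 most abundant genes per group. Other genes named were chosen after their values were seen, among them *Nf2*, *Wwc1*, *Abcg5*, *Abcb4*, *Cyp3a11*, *Epcam*, *Otc*, *Nr0b2*, *Igf1*, *Igfals*, *Ccnb2*, *Col4a1*, *Krt18* and *Gpnmb*.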

Additional observations from a re-analysis of the deposited data

How the results depend on the processing

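Of 228 named genes tested, 195 were called. Of the 163 of these that all 13 alternatives could test, 138 were called under each, and 27 of the other 32 were called under each alternative that tested them. The scaling had the widest effect: without it 4089 genes were higher and 886 lower (82.2% higher), 1347 of them over 2-fold higher and 299 over 2-fold lower, and the medians of 8 of the 41 lists changed sign. *Rplp0*, a ribosomal protein gene, went from a log2 fold change just below 0, with no call, to 0.32 without scaling and 0.38 with quantile normalization; the cause was not tested. At an adjusted p under 0.01, 2642 genes changed, 1418 higher and 1224 lower. Leaving out each mouse in turn, 2833 to 4069 genes changed, 1337 to 2041 higher and 1496 to 2206 lower, with 629 to 959 over 2-fold higher, 426 to 547 over 2-fold lower, and 45.8% to 53.4% of the changed genes higher. Fewer genes were higher without LM250 (1406) or LM251 (1337) than without LM225 (1863). These fits all hold fewer mice than the main one, and the cause of the difference between them was not tested. The other alternatives left these counts within 1.5 times. No paired analysis was possible because the replicate names differ between groups. Depth is unknown, and 3 mice per group limit the precision of every value.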
